A study of Mus musculus with 6 samples.

Results

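The 9 genes described here form a family of surface and bridging proteins with which macrophages take up dying cells and other cargo. They are the receptor tyrosine kinases Mertk, Axl and Tyro3 (the TAM receptors), their bridging ligands Gas6 and Pros1, and the endocytic receptors Stab1, Stab2, Mrc1 and Folr2. They were chosen by name, as the features whose gene symbol equals one of these names, and they are 9 of the 31054 features of the deposited matrix. Each symbol matched 1 Ensembl gene.

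The study profiled macrophage and monocyte lineage cells of mouse embryos by droplet single-cell RNA sequencing in order to characterise embryonic precursors of osteoclasts. The labels describe 6 samples in 3 groups of 2. The Cx3cr1CreER; R26tdTomato embryos were given 4-hydroxytamoxifen at E9.5, and the Csf1r-Mer-iCre-Mer; Csf1r-EGFP; R26tdTomato embryos at E8.5. Both carry a tamoxifen-inducible Cre and the R26tdTomato Cre reporter, so the Cre acts in cells that use the Cx3cr1 or Csf1r promoter when the drug is present, and both were collected at E14.5 from whole-body cell suspensions. The third group is total bone marrow of wildtype C57BL/6 mice aged 2 months. The deposited count matrix pools 39048 barcodes of 4 libraries, told apart by the barcode suffix, and no label ties a suffix to a sample. The matrix was therefore treated as 1 sample, and no p-value was computed. Values are given in libraries 1 to 4 or pooled over them. These libraries are not replicates of a known condition.

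TAM receptors sense phosphatidylserine, the lipid that dying cells expose, through the vitamin K-dependent proteins Gas6 and protein S (the product of Pros1), which bridge the lipid to the kinase. Gas6 binds each of the TAM receptors, whereas protein S binds Mertk and Tyro3. Mertk serves mainly in the quiet clearance of apoptotic cells by resident macrophages, Axl is the TAM receptor that responds to inflammatory signals, and Tyro3 is best known from the nervous system. Stab1 and Stab2 encode stabilin-1 and stabilin-2, large endocytic receptors that also recognise phosphatidylserine. Stabilin-2 is known as the hyaluronan receptor of liver and spleen sinusoids. Mrc1 encodes the mannose receptor CD206, which internalises glycoproteins with exposed mannose, and Folr2 encodes folate receptor beta, a marker of resident macrophages in many tissues.

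In GENCODE M21 on GRCm38 the 9 genes are protein-coding and lie on 6 chromosomes. The TAM receptors are Mertk at chr2:128698956-128802894, Tyro3 at chr2:119797733-119818104 and Axl at chr7:25757273-25788705. The ligands are Gas6 at chr8:13465374-13494490 and Pros1 at chr16:62854307-62929346. The endocytic receptors are Stab1 at chr14:31139013-31168641, Stab2 at chr10:86841198-87008025, Mrc1 at chr2:14229392-14332057 and Folr2 at chr7:101839988-101857194.

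The promoters of 4 members are shown because their levels follow different patterns across the classes described below. Stab1 and Mrc1 moved together, and Stab2 did not move with its paralog Stab1. Axl moved against Stab1 and Mrc1 when tissue macrophages were split by Lyve1. The sequences are those of RefSeq (GRCm38.p6), from 250 bases before to 50 bases after the annotated start, written 5′ to 3′ on the gene's strand. Capitals mark GAGGAA or its reverse complement TTCCTC, the core bound by the myeloid factor PU.1. The windows are chr14:31168592-31168891 on the minus strand for Stab1, chr2:14229164-14229463 on the plus strand for Mrc1, chr10:87007893-87008192 on the minus strand for Stab2 and chr7:25788684-25788983 on the minus strand for Axl.
Stab1: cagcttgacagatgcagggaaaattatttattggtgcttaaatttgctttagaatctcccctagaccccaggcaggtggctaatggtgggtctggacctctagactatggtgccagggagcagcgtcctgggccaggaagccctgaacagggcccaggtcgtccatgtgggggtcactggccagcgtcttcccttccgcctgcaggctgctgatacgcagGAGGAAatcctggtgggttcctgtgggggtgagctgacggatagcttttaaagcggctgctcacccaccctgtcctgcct
Mrc1: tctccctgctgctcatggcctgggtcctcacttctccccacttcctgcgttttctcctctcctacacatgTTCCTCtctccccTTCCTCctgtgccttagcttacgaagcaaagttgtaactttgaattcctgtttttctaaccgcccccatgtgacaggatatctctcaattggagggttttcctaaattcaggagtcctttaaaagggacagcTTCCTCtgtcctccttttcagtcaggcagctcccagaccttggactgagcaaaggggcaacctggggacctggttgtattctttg
Stab2: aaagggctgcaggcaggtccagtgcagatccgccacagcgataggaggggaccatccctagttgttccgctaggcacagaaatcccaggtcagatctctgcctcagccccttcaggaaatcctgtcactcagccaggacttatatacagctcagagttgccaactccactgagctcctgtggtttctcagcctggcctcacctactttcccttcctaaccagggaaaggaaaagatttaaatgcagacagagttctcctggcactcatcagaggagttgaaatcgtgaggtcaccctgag
Axl: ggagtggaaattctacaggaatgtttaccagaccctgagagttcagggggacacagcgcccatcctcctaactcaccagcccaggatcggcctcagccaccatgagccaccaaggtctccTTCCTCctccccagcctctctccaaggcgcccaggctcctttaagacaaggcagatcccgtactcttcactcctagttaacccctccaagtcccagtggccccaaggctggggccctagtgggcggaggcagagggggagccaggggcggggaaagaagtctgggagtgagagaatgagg
The core was searched on both strands in all 9 promoters, each of which was in the table. It occurred 3 times in the Mrc1 window and once each in the Stab1 and Axl windows, and these letters were not found in the windows of the other 6 members. Of all 32851 promoters of this length in the table, 9289 (28.3%) held the core. A match describes the sequence and is not evidence of binding.

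Cells were kept with at least 1000 unique molecular identifiers (UMIs, each standing for 1 captured transcript), at least 500 genes and at most 10% mitochondrial UMIs, which left 34587 cells. Libraries held between 106500620 and 198754246 UMIs and shared between 85 and 206 cell barcodes per pair. Classes were gated by markers that include none of the 9 genes, and 23252 cells fell into 1 class. They comprised 8276 tissue macrophages (with Lyve1, Pf4, Cbr2, Cd163, Ms4a7, F13a1 and C1q), 1391 microglia, 835 Kupffer cells, 2216 Clec4a-high macrophage precursors, 3711 monocytes and 82 osteoclasts. A further 226 endothelial cells, 634 mesenchymal cells and 631 erythroid cells served as other cell types. Levels of gate markers describe the classes and follow from the gates: Ctsk stood at 2643 CPM in osteoclasts and 0.834 CPM in tissue macrophages, Sall1 at 43.2 CPM in microglia and 0.281 CPM in tissue macrophages, and Clec4f at 117 CPM in Kupffer cells and 0.429 CPM in tissue macrophages. The libraries did not hold the same cells: neutrophils numbered 5, 5, 312 and 537 and B-lineage cells 0, 0, 67 and 101 in libraries 1 to 4. Class levels of the members were therefore read within each library as well as pooled. Levels are counts per 1e6 summed UMIs of a class (CPM), with a 95% Poisson interval that covers counting error only. The chemistry counts transcript ends without a length term, so levels are compared between classes for 1 gene and not between genes.

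**Figure D1:**
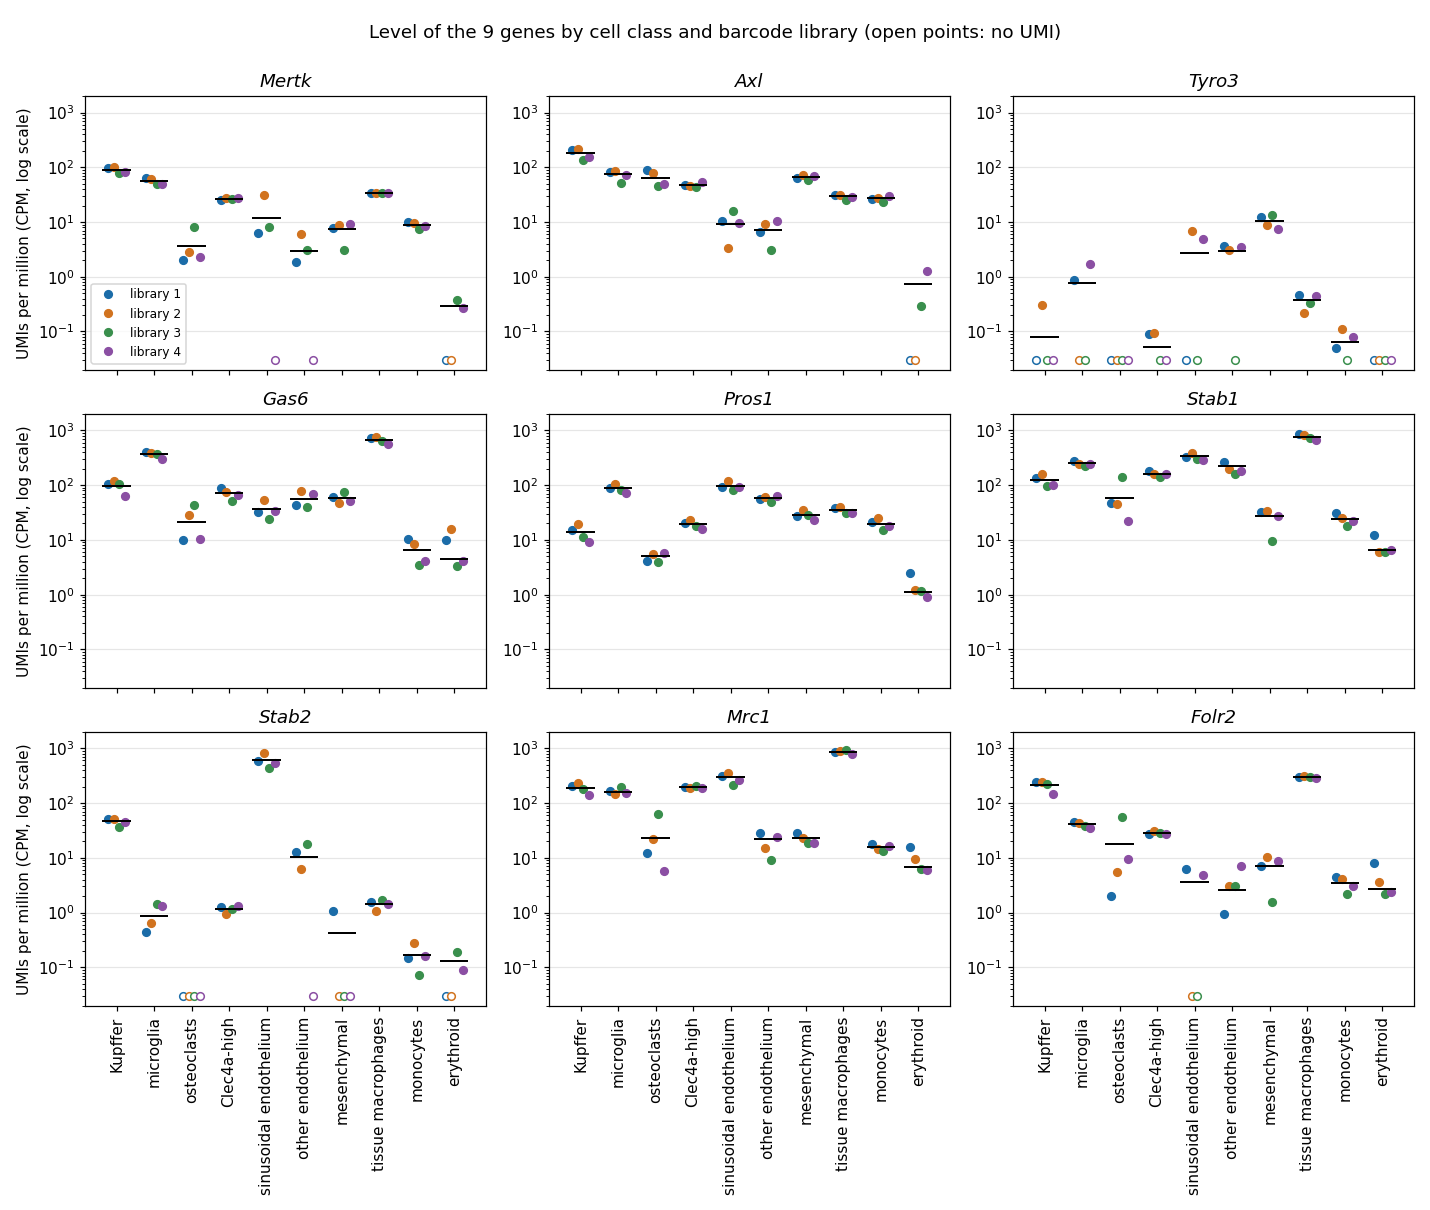
CPM (log scale) of each of the 9 genes in 10 cell classes; points are libraries 1 to 4, black lines the pooled class and open points libraries with no UMI. Gas6, Stab1, Mrc1 and Folr2 stood highest in tissue macrophages, Axl and Mertk in Kupffer cells, Stab2 in sinusoidal endothelium and Tyro3 in mesenchymal cells.

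Among the TAM receptors, Axl was highest in Kupffer cells, the macrophages of the liver. It stood at 206, 215, 137 and 154 CPM in Kupffer cells of libraries 1 to 4, against 31.3, 31.3, 25.4 and 28.8 CPM in tissue macrophages, so that the lowest Kupffer value lay above the highest tissue macrophage value. Pooled, this was 182 CPM (175 to 190) in Kupffer cells and 29.7 CPM in tissue macrophages, 6.15-fold higher. The tissue macrophage level depended on the number of markers. Axl stood at 44.8 CPM (43.1 to 46.5) in the 4264 cells with 5 markers. It stood at 14.6 CPM (13.6 to 15.6) in the 3822 cells with 6 and 16.7 CPM in the 190 cells with 7 or 8. Lyve1, itself a marker of the gate, stood at 133 CPM in the cells with 5 markers and 1180 CPM in those with 6. This split is therefore not independent of the split by Lyve1 described below. Requiring 1 more marker in each class, which favoured tissue macrophages with Lyve1, gave 194 CPM in Kupffer cells and 15.5 CPM in tissue macrophages. Microglia, the macrophages of the brain, held 82.7, 85.6, 51.4 and 72.3 CPM, also above tissue macrophages in each library. Mesenchymal cells held 62.6, 72.9, 59.7 and 70.5 CPM of Axl, and osteoclasts 91.0, 78.4, 45.8 and 49.2 CPM. The order of microglia (76.4 CPM), mesenchymal cells (65.9 CPM), osteoclasts (62.5 CPM, 52.5 to 73.9) and Clec4a-high precursors (47.8 CPM) was not the same in each library, as the libraries of neighbouring classes overlapped. Axl in tissue macrophages overlapped with that in monocytes, which held 26.9, 27.8, 23.3 and 29.6 CPM. Erythroid cells, which should lack the gene, held 0.724 CPM.

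Mertk, the clearance receptor, was graded across the macrophage classes without overlap between neighbours. Kupffer cells held 96.6, 103, 79.0 and 80.8 CPM, microglia 62.7, 61.4, 48.5 and 48.7 CPM, and tissue macrophages 33.8, 33.9, 34.2 and 34.3 CPM. Clec4a-high precursors followed at 26.6 CPM and monocytes at 9.01 CPM. The tissue macrophage value was nearly the same in the 4 libraries, while both Kupffer cells and microglia were lower in libraries 3 and 4 than in libraries 1 and 2. Osteoclasts held 8 Mertk UMIs in all, 3.62 CPM (1.56 to 7.14), and erythroid cells 0.298 CPM.

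Tyro3 was scarce in macrophages. Its highest level was in mesenchymal cells, at 12.5, 8.68, 13.3 and 7.31 CPM in libraries 1 to 4, or 10.7 CPM (8.39 to 13.3) from 76 UMIs. Microglia gave 12 UMIs (0.754 CPM), tissue macrophages 45 UMIs (0.372 CPM) and Kupffer cells 1 UMI (0.0781 CPM). No Tyro3 UMI was found in osteoclasts, where a count of 0 allows up to 1.36 CPM, or in erythroid cells. At this depth the macrophage classes thus showed Mertk and Axl, and Tyro3 was close to the limit of detection.

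Of the ligands, Gas6 was highest in tissue macrophages and nearly absent from monocytes. Tissue macrophages of libraries 1 to 4 held 724, 763, 635 and 566 CPM of Gas6, against 10.3, 8.45, 3.56 and 4.16 CPM in monocytes. Microglia held 398, 394, 365 and 304 CPM, and Kupffer cells 106, 117, 107 and 63.8 CPM. Each library gave the order tissue macrophages, microglia, Kupffer cells. Below these, Clec4a-high precursors (73.0 CPM), mesenchymal cells (59.0 CPM) and endothelial cells (49.4 CPM) overlapped between libraries. The monocyte level (6.65 CPM) was near the 4.47 CPM of erythroid cells. Kupffer cells, with the most Axl and Mertk of the macrophage classes, thus held 7.04-fold less Gas6 than tissue macrophages did.

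Pros1 followed another order and was highest in microglia and in sinusoidal endothelium. Microglia held 89.6, 104, 83.1 and 71.4 CPM of Pros1, against 37.6, 39.1, 30.6 and 31.6 CPM in tissue macrophages. Sinusoidal endothelial cells, the cells that line liver and marrow sinusoids, held 93.5, 119, 80.7 and 91.5 CPM, against 56.6, 61.4, 48.4 and 63.1 CPM in the other endothelial cells. The 17 megakaryocytes, a known source of protein S in platelets, held 37 UMIs or 68.2 CPM (48.0 to 94.0). Kupffer cells held 14.0 CPM and hepatocytes, the main source of plasma protein S in the adult, 12.2 CPM. The 2 ligands therefore differed in where they stood highest: microglia held 1.86-fold less Gas6 and 2.49-fold more Pros1 than tissue macrophages.

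Among the endocytic receptors, Stab1 and Mrc1 were the most alike. Stab1 stood at 846, 817, 735 and 675 CPM in tissue macrophages and 30.8, 24.9, 18.2 and 22.0 CPM in monocytes of libraries 1 to 4. Mrc1 stood at 859, 898, 949 and 790 CPM in tissue macrophages and 18.2, 14.7, 13.5 and 16.6 CPM in monocytes. For both genes each tissue macrophage library lay above each library of any other class shown. Sinusoidal endothelium held 335 CPM of Stab1 and 306 CPM of Mrc1, and the other endothelial cells 222 CPM of Stab1 but 21.7 CPM of Mrc1. Kupffer cells held 125 CPM of Stab1 and 190 CPM of Mrc1, microglia 251 and 162 CPM, and Clec4a-high precursors 163 and 194 CPM. For Mrc1, the Kupffer, microglia and Clec4a-high libraries overlapped.

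Folr2 differed from that pair in Kupffer cells. They held 244, 242, 228 and 146 CPM of Folr2, against 306, 317, 297 and 289 CPM in tissue macrophages and 45.3, 44.2, 38.4 and 35.1 CPM in microglia. In Kupffer cells the Folr2 level was therefore 1.43-fold lower than in tissue macrophages, whereas Stab1 was 6.20-fold lower and Mrc1 4.56-fold lower. Library 4 had the lowest Kupffer value for Folr2, as it did for Gas6 and Mrc1. Monocytes held 3.51 CPM and erythroid cells 2.64 CPM of Folr2.

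Stab2 was concentrated in 2 classes. Sinusoidal endothelial cells held 580, 816, 436 and 539 CPM, or 619 CPM (574 to 668) from 679 UMIs in 74 cells. Kupffer cells held 50.2, 51.2, 36.6 and 44.7 CPM, or 46.8 CPM (43.1 to 50.7) from 599 UMIs. Tissue macrophages followed at 1.41 CPM, microglia at 0.880 CPM and monocytes at 0.168 CPM, and osteoclasts gave no UMI, which allows up to 1.36 CPM. Kupffer cells adjoin the sinusoidal endothelium of the liver, so endothelial RNA was counted in them. Of 835 Kupffer cells, 364 (43.6%) held a Stab2 UMI, and of these 24 (6.59%, 95% Clopper-Pearson interval 4.27 to 9.65%) held any UMI of the endothelial genes Kdr, Cldn5, Oit3, Gpr182, Clec4g, Emcn and Esam. Of the 471 Kupffer cells without a Stab2 UMI, 17 (3.61%, 2.12 to 5.72%) held one, at a median depth of 10348 UMIs against 16828.5 in the cells with Stab2. Pooled over Kupffer cells, Stab2 stood at 7.56% of its sinusoidal level, while those 7 genes stood at 0 (Clec4g) to 0.405% (Emcn) of theirs. Kdr, Cldn5, Emcn and Esam are markers of the endothelial gate, and Oit3, Gpr182 and Clec4g of the sinusoidal subset. Cells that met both the Kupffer and the endothelial gate were left out. The low Kupffer and high sinusoidal levels of these genes thus follow in part from the gates. Cdh5, an endothelial gate marker outside that list, stood at 140 CPM in Kupffer cells, 30.5% of its sinusoidal level. How much of the Kupffer Stab2 comes from endothelial RNA was not tested.

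A difference between classes was called when log2(CPM + 10) differed at least 2-fold, among genes with at least 10 CPM in either class. The same rule was applied to all genes to give the background share of calls. The comparisons of Kupffer cells, microglia, Clec4a-high precursors, osteoclasts, endothelial and mesenchymal cells share the same tissue macrophages. Between tissue macrophages and monocytes, 7 members passed the minimum and 5 were higher in tissue macrophages, where 6.55% of 7666 genes were higher and 3.89% lower. Gas6 was higher by 5.37 (4 libraries 5.18 to 5.57) on this log2 scale, Mrc1 by 5.08 (4.91 to 5.35), Folr2 by 4.53 (4.44 to 4.65), Stab1 by 4.52 (4.39 to 4.72) and Mertk by 1.21 (1.13 to 1.33). Pros1 (0.60, 0.50 to 0.71) and Axl (0.09, -0.03 to 0.16) were under the call. The sign of the Axl value turned with stricter gates, which gave -0.64 from 15.5 CPM in tissue macrophages and 29.8 CPM in monocytes. For Mertk the value was 0.98 with looser gates, which ended the call. Tyro3 and Stab2 were under the minimum in both classes.

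Kupffer cells showed 3 members higher and 3 lower than tissue macrophages among 8 past the minimum, against 2.91% of 7616 genes higher and 2.55% lower. Stab2 (2.32, libraries 2.00 to 2.46), Axl (2.28, 2.06 to 2.45) and Mertk (1.19, 1.01 to 1.36) were higher. Gas6 (-2.69, -2.97 to -2.46), Stab1 (-2.54, -2.79 to -2.31) and Mrc1 (-2.13, -2.41 to -1.90) were lower. Kupffer cells were therefore richer in both receptors and poorer in the ligand Gas6. Pros1 at -0.92 and Folr2 at -0.50 missed the call. Assigning each cell by likelihood gave 0.98 for Mertk, which ended that call, and stricter gates gave -1.06 for Pros1, which made one.

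Microglia showed 2 members higher and 3 lower among 7, against 2.2% of 7551 genes higher and 1.39% lower. Axl (1.12, 0.79 to 1.21) and Pros1 (1.11, 0.97 to 1.22) were higher than in tissue macrophages. Folr2 (-2.61, -2.73 to -2.51), Mrc1 (-2.35, -2.53 to -2.20) and Stab1 (-1.59, -1.73 to -1.41) were lower. Gas6 at -0.88 and Mertk at 0.59 were under the call, although both had the same direction in the 4 libraries. Looser gates gave 0.88 for Axl, assignment by likelihood 0.98 for Pros1 and stricter gates -1.12 for Gas6, each across the line of the call.

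Clec4a-high precursors, which are marked by Clec4a1, Clec4a2, Clec4a3, Socs3 and Cd300a, had no member higher and 4 of 7 lower than tissue macrophages, against 1.42% of 7487 genes higher and 1.5% lower. Gas6 differed by -3.05, Folr2 by -3.02, Stab1 by -2.19 and Mrc1 by -2.10 on the log2 scale, with libraries between -3.38 and -1.99. Axl differed by 0.54 (0.41 to 0.72) and Mertk by -0.27, both under the call. The precursors thus stood further from tissue macrophages in Gas6 and the endocytic receptors than in Mertk and Axl.

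**Figure D2:**
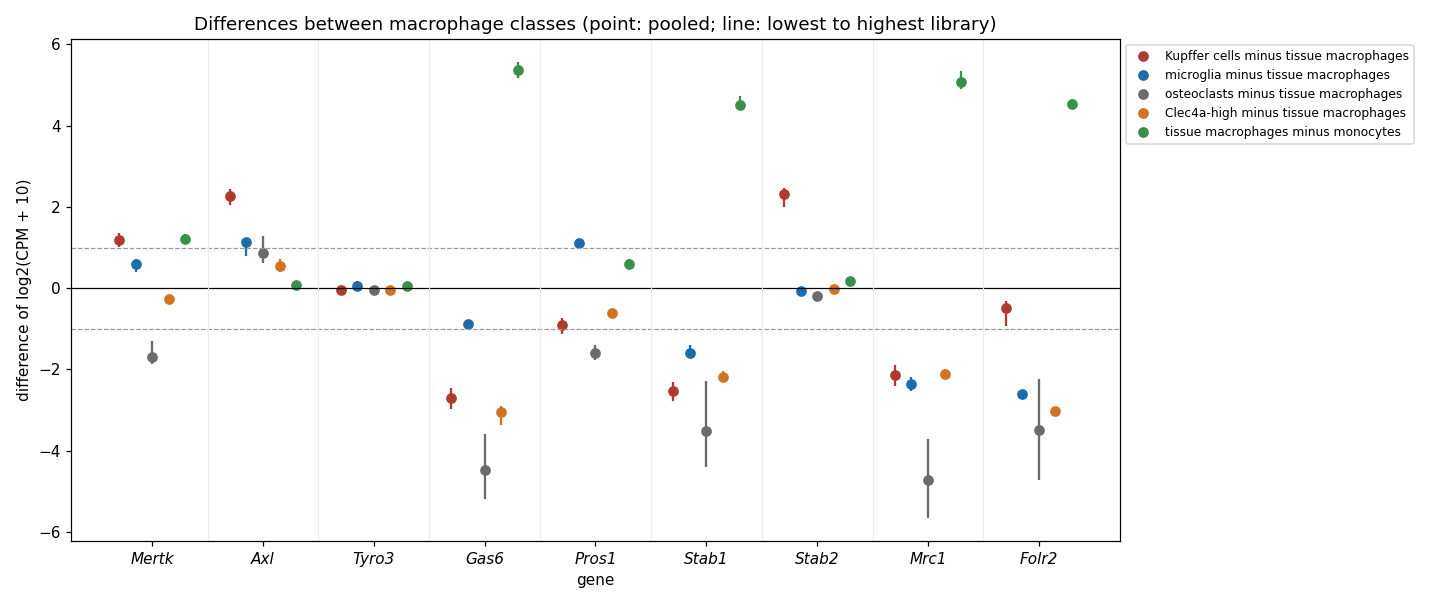
Difference of log2(CPM + 10) for each of the 9 genes in 5 comparisons, each with the class on the left of the minus sign in its label against the other; points are pooled classes, vertical lines run from the lowest to the highest library and dashed lines mark 2-fold. Axl lay above 0 in each comparison with tissue macrophages as the second class and near 0 (0.09) for tissue macrophages minus monocytes, where stricter gates gave -0.64. Gas6, Stab1, Mrc1 and Folr2 lay below 0 in Kupffer cells, microglia, osteoclasts and Clec4a-high precursors against tissue macrophages.

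Osteoclasts, the bone-resorbing cells the study sought to trace, had no member higher and 6 of 7 lower than tissue macrophages, against 6.03% of 7824 genes higher and 10.1% lower. Mrc1 differed by -4.73 (libraries -5.66 to -3.70), Gas6 by -4.48 (-5.19 to -3.58) and Stab1 by -3.51 (-4.41 to -2.28). Folr2 differed by -3.50 (-4.71 to -2.22), Mertk by -1.69 (-1.87 to -1.30) and Pros1 by -1.59 (-1.76 to -1.39). Axl was the member that was not lower, at 0.87 above tissue macrophages (0.61 to 1.29 in the libraries). This rested on 138 Axl UMIs, and 64.6% of the 82 osteoclasts held at least 1, against 24.3% of tissue macrophages, at median depths of 26529.5 and 13668.5 UMIs. After thinning to 2000 UMIs per cell these shares were 9.76% (95% Clopper-Pearson interval 4.31 to 18.3%) in osteoclasts and 5.48% in tissue macrophages. Stricter gates gave 1.52 for Axl and leaving out library 4 gave 1.02, both past the call. The stricter gate left Axl in osteoclasts at 63.1 CPM and in tissue macrophages at 15.5 CPM, against 62.5 and 29.7 CPM with the gates used here.

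The osteoclasts of library 3, 19 cells, stood apart. They held 55.8 CPM of Folr2, 63.8 CPM of Mrc1 and 143 CPM of Stab1, while the other 3 libraries lay between 2.02 and 9.37 CPM for Folr2, between 5.86 and 22.4 CPM for Mrc1 and between 22.2 and 46.5 CPM for Stab1. Tissue macrophage markers moved with them: Pf4 was 379 CPM and Lyve1 95.6 CPM in library 3, against 62.7 to 89.7 CPM and 4.67 to 6.07 CPM in the others. The 8 tissue macrophage markers summed to 483 to 1384 CPM over the libraries of osteoclasts and to 12110 to 13400 CPM in tissue macrophages. Their part in the osteoclast levels was not tested. Without library 3 the differences were -4.26 for Folr2, -5.35 for Mrc1, -4.17 for Stab1, -4.86 for Gas6 and 0.93 for Axl.

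Endothelial cells as a whole had Stab2 higher (4.23) and 6 of 8 members lower than tissue macrophages, against 13.6% of 8824 genes higher and 9.15% lower. Pros1 was 0.83 higher (0.71 to 1.03), under the call. Within the endothelium, the 74 sinusoidal cells had Stab2 (4.96, libraries 3.99 to 5.78) and Mrc1 (3.31, 2.99 to 3.84) higher than the other 152 cells, and none of the 6 members past the minimum was lower, against 3.79% of 8713 genes higher and 4.67% lower. Mrc1 thus separated sinusoidal from other endothelium where Stab1 (0.57) did not reach the call. In the sinusoidal cells the macrophage genes Pf4 and C1qa were at 2.03% and 3.20% of their tissue macrophage level, and Mrc1 was at 35.3%. How much of the sinusoidal Mrc1 comes from macrophage RNA was not tested.

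Mesenchymal cells had no member higher and 5 of 8 lower than tissue macrophages, against 18% of 9326 genes higher and 10.2% lower. Tyro3 (0.99, 0.73 to 1.18) and Axl (0.94, 0.82 to 1.05) lay just under the call, and both were higher in each of the 4 libraries. Over genes with at least 10 CPM in both classes the median log2 ratio was 0.19 in both the endothelial and the mesenchymal comparison. Over all genes tested the median difference was 0.21 in endothelial and 0.24 in mesenchymal cells. The differences given were not corrected for this shift and include it. In mesenchymal cells the macrophage genes Pf4 and C1qa stood at 2.59% and 4.39% of the tissue macrophage level, and the members Mrc1 and Folr2 at 2.67% and 2.36%. Gas6 stood at 8.70% and Axl at 222%. Stricter gates gave 63.2 CPM of Mrc1 and 15.4 CPM of Folr2 in mesenchymal cells, against 23.1 and 7.15 CPM with the gates used here. How much of the mesenchymal Gas6, Mrc1 and Folr2 comes from macrophage RNA was not tested.

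Tissue macrophages were themselves not uniform in these genes. A split by Lyve1, the hyaluronan receptor of perivascular and interstitial macrophages, was made after the members' values had been seen: 4650 cells with at least 2 Lyve1 UMIs (Lyve1-high) and 3626 cells with 0 or 1 (Lyve1-low). Their median depths were 13806 and 13474.5 UMIs. Axl stood at 17.0, 16.8, 14.9 and 14.3 CPM in Lyve1-high and 49.99, 49.9, 43.3 and 44.9 CPM in Lyve1-low cells of libraries 1 to 4. Axl was thus 2.99-fold lower in Lyve1-high cells, without overlap. Folr2 went the other way, with 423 CPM in Lyve1-high and 147 CPM in Lyve1-low cells, as did Gas6 (894 and 398 CPM), Mrc1 (1115 and 544 CPM) and Stab1 (950 and 548 CPM). Lyve1 is 1 of the 8 markers of the tissue macrophage gate, of which 5 were needed, so that a Lyve1-low cell had to show 5 of the other 7. The lower Axl with stricter gates and the lower Axl in Lyve1-high cells are therefore not independent results.

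On the log2 scale Folr2 (1.47, libraries 1.38 to 1.55), Gas6 (1.15, 1.11 to 1.16) and Mrc1 (1.02, 0.98 to 1.05) were called higher in Lyve1-high cells, where 0.229% of 7409 genes were, and Stab1 (0.78, 0.74 to 0.82) was under the call. Axl (-1.15, -1.18 to -1.10) was called lower, where 0.391% were. Mertk differed by 0.06 (-0.03 to 0.18), with 34.9 CPM in Lyve1-high and 33.0 CPM in Lyve1-low cells. The TAM receptors therefore differed along the Lyve1 split of tissue macrophages: Axl was the lower one where its ligand Gas6 was higher, and Mertk was level. The monocyte gene Ccr2 moved with Axl, at 13.7 CPM in Lyve1-high and 93.5 CPM in Lyve1-low cells, and Pf4 moved with Gas6, at 4896 and 2018 CPM. Csf1r, the growth factor receptor of the lineage, was close at 1033 and 1015 CPM. The part of Ccr2-bearing cells in the Axl level was not tested.

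**Figure D3:**
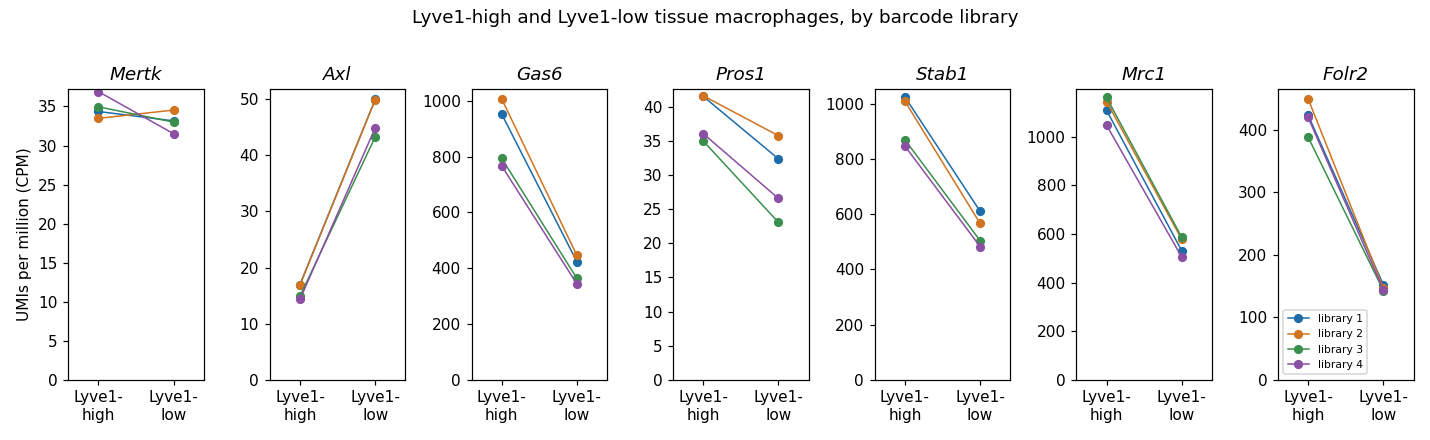
CPM (linear scale) of 7 genes in Lyve1-high and Lyve1-low tissue macrophages, 1 line per library. Axl lay at 14.3 to 17.0 CPM in Lyve1-high and 43.3 to 49.99 CPM in Lyve1-low cells, opposite to Gas6, Stab1, Mrc1 and Folr2, and the Mertk lines crossed.

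Cycling tissue macrophages (1722 cells with at least 4 of 6 proliferation markers) held slightly less of each member past the minimum than the 5403 non-cycling cells, in each of the 4 libraries. Gas6 stood at 558, 602, 515 and 418 CPM in cycling and 823, 843, 720 and 669 CPM in non-cycling cells, a difference of -0.56. Folr2 differed by -0.54, Axl by -0.47, Mertk by -0.38, Pros1 by -0.25, and Stab1 and Mrc1 by -0.23. No member was called, where 2.85% of 7539 genes were called higher and 0.119% lower. Cycling cells were deeper, with a median of 20382.5 UMIs against 12113.

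Chemokine-rich tissue macrophages (1087 cells) had no member called against the other 7189, where 0.786% of 7377 genes were called higher and 0.0813% lower. Stab1 differed by -0.43 (-0.43 to -0.26), with 647, 615, 639 and 555 CPM in chemokine-rich and 864, 834, 766 and 724 CPM in other tissue macrophages. Gas6 differed by -0.31 pooled, with -0.61, -0.34, -2.2e-04 and -0.10 in libraries 1 to 4. Folr2 differed by -0.10 pooled and changed sign between libraries, at -0.47, -0.45, 0.23 and 0.03. Axl differed by -0.01 (-0.07 to 0.29). Chemokine-rich cells numbered 156, 136, 282 and 513 in libraries 1 to 4, and the other tissue macrophages 2440, 2168, 1110 and 1471. The pooled values therefore weigh the libraries differently in each class. The inflammatory chemokine signature thus did not go with a difference in Axl or Mertk that reached the call.

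The gates of Kupffer cells and microglia need at least 3 markers, so levels were also read by the number of markers a cell showed, a split made after the values had been seen. In Kupffer cells with 3, 4 and 5 to 7 markers (273, 244 and 318 cells), Stab2 stood at 20.8, 44.9 and 67.4 CPM. Mertk stood at 59.3, 88.6 and 116 CPM, Axl at 148, 179 and 211 CPM and Folr2 at 159, 193 and 264 CPM. These 4 genes were thus higher in cells with more Kupffer markers, while Gas6 (126, 91.7 and 77.4 CPM) and Stab1 (150, 126 and 106 CPM) were lower there. For Mrc1 (200, 187 and 185 CPM) and Pros1 (15.0, 13.3 and 13.7 CPM) the counting intervals overlapped. The median depth was 12015, 11741.5 and 14714.5 UMIs.

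In microglia with 3, 4 and 5 or 6 markers (665, 440 and 286 cells), Pros1 stood at 64.2, 102 and 124 CPM and Gas6 at 328, 389 and 419 CPM. Axl went the other way, at 96.8, 68.1 and 40.0 CPM, as did Mrc1 at 222, 121 and 76.7 CPM and Folr2 at 56.0, 33.1 and 17.3 CPM. The tissue macrophage marker Pf4 moved with them, at 541, 233 and 164 CPM, and its part in these levels was not tested. Mertk stood at 46.8, 66.0 and 65.2 CPM. With 1 more marker in each class, Axl was 56.6 CPM in microglia and 15.5 CPM in tissue macrophages, against 76.4 and 29.7 CPM with the gates used here. Axl thus fell in both classes with stricter gates. The 40.0 CPM (33.5 to 47.4) of microglia with 5 or 6 markers lay above pooled tissue macrophages but below the 47.6 CPM of Lyve1-low tissue macrophages. The higher Axl of microglia therefore depended on which cells of both classes were compared.

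**Figure D4:**
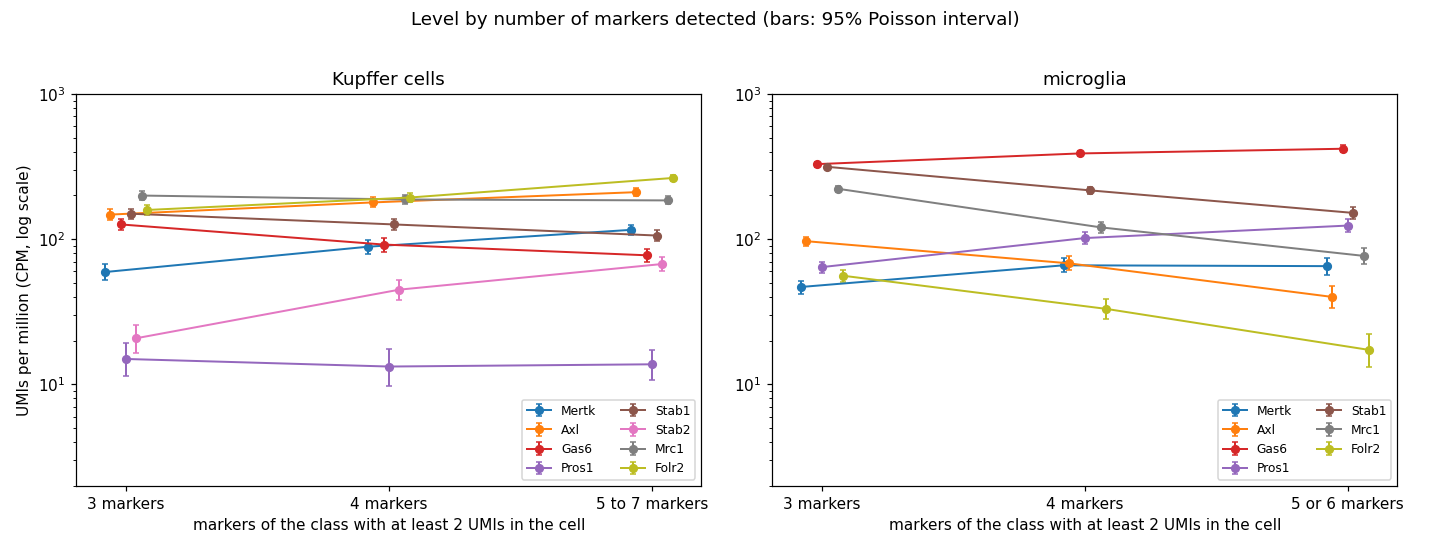
CPM (log scale) of the members in Kupffer cells (left) and microglia (right) by the number of class markers with at least 2 UMIs; bars are 95% Poisson intervals. Stab2, Mertk, Axl and Folr2 were higher in Kupffer cells with more markers, and in microglia with more markers Pros1 was higher while Axl, Stab1, Mrc1 and Folr2 were lower.

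To compare shares of cells at equal depth, each cell was thinned to 2000 UMIs, which left out 32 tissue macrophages, 22 Kupffer cells and 6 microglia. At that depth a TAM receptor UMI was found in 42.3% of Kupffer cells, 23.4% of microglia and 12.01% of tissue macrophages, against 6.82% of monocytes and 0 of 630 erythroid cells, which allows up to 0.476%. A ligand UMI was found in 17.0% of Kupffer cells, 56.0% of microglia and 67.6% of tissue macrophages, against 4.53% of monocytes and 0.952% of erythroid cells. A receptor and a ligand were found in the same cell in 6.89% of Kupffer cells, 12.6% of microglia and 7.90% of tissue macrophages. Without thinning these last shares were 49.0%, 60.7% and 46.3%. Kupffer cells thus led in receptor-positive cells and tissue macrophages in ligand-positive cells, and the share with both was highest in microglia of these 3 classes. The share with both depends on the receptor share and the ligand share. Whether it differed from what those shares alone give was not tested.

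Stab1 and Mrc1 were found together in 58.2% of tissue macrophages at 2000 UMIs and in 96.1% without thinning. Whether such joint shares differed from what the share of each gene alone gives was not tested. The share was 6.52% in Kupffer cells, 9.24% in microglia, 21.6% in sinusoidal endothelium and 1.35% in the other endothelial cells, against 0.159% in erythroid cells. Stab2 was found in 62.2% of sinusoidal endothelial and 11.3% of Kupffer cells, against 0.230% of tissue macrophages. In erythroid cells, whose median depth before thinning was 38828.5 UMIs, the share with each member lay between 0% and 1.27%. Their Pf4 level was 0.697% of the tissue macrophage level, against 2.59% in mesenchymal cells, so the erythroid shares are not a measure of the free RNA in each class.

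Other genes of the clearance pathway were read from lists, some of whose genes (C1qa, C1qb, Timd4, Marco, Cd163, Cd5l, Lyve1, Socs3 and Cd300a) are also gate markers and were left out of the counts. Of 11 tested genes for phosphatidylserine recognition and bridging, 2 were higher and 3 lower in tissue macrophages than in monocytes, against 6.55% of all genes higher and 3.89% lower, with a median of 0.48 against 0.00 over all genes tested. Cd36, a scavenger receptor for lipids, stood at 133 CPM in tissue macrophages and 3.75 CPM in monocytes (3.38 on the log2 scale), and C1qc, a complement chain that bridges to dying cells, at 3371 and 214 CPM (3.92). C1qc is a C1q chain like the gate markers C1qa and C1qb, so its call is not independent of the gate. Thbs1, which bridges dying cells to Cd36, was lower, at 14.0 CPM in tissue macrophages and 195 CPM in monocytes (-3.10), as was Anxa1, another phosphatidylserine binder, at 37.8 and 294 CPM (-2.67).

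Of the 6 other scavenger receptors tested, 4 were higher in tissue macrophages than in monocytes and none lower, against the same 6.55% and 3.89% of all genes. Colec12, a scavenger receptor with a collagen stalk, stood at 123 CPM in tissue macrophages and 3.93 CPM in monocytes (3.25), and Msr1, scavenger receptor A, at 124 and 54.0 CPM (1.07). In Kupffer cells 2 of 6 were higher and none lower than in tissue macrophages, where 2.91% of all genes were higher and 2.55% lower. In microglia 1 of 6 was higher and 2 lower, where 2.2% were higher and 1.39% lower. In osteoclasts none of 6 was higher and 3 were lower, where 6.03% were higher and 10.1% lower. Msr1 and Colec12 stood at 30.6 and 14.0 CPM in microglia and at 10.4 and 5.44 CPM in osteoclasts, so they were lower there together with Stab1 and Mrc1. In the mannose receptor and lectin list Clec10a, a galactose-binding lectin, stood at 78.8 CPM in tissue macrophages and 7.50 CPM in monocytes, and at 9.43 CPM in microglia and 16.7 CPM in Kupffer cells.

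Of 12 engulfment and digestion genes tested, 3 were higher and none lower in tissue macrophages than in monocytes, against 6.55% and 3.89% of all genes. Abca1, which exports cholesterol after engulfment, stood at 178 CPM in tissue macrophages and 9.48 CPM in monocytes (3.27), and Lgmn, a lysosomal protease, at 2243 and 284 CPM (2.94). In osteoclasts 4 of 11 were lower than in tissue macrophages and none higher, against 10.1% and 6.03% of all genes, with Lgmn at 330 CPM and Abca1 at 26.3 CPM. Among the sheddases and further Mertk ligands, Lgals3 (galectin-3) stood at 1113 CPM in Kupffer cells and 153 CPM in tissue macrophages (2.78), against 1331 CPM in monocytes. Adam10 and Adam17, which cleave TAM receptors from the surface, were under the call in tissue macrophages against monocytes at -0.51 and 0.48.

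The vitamin K cycle enzymes that Gas6 and protein S need were not called between tissue macrophages and monocytes in either of the 2 tested genes, Vkorc1 (62.3 and 29.9 CPM, 0.86) and Vkorc1l1 (10.8 and 11.6 CPM). Ggcx, the carboxylase, stood at 5.95 and 2.55 CPM, under the minimum. None of the 4 tested genes of TAM signalling was called in that comparison, among them Grb2 (0.14) and Ifnar1 (0.21). In the folate list the transporter Slc46a1 was higher in tissue macrophages, at 17.4 CPM against 1.20 CPM in monocytes (1.29), and 3 further tested genes were under the call. P2ry6, a receptor for nucleotides released by dying cells, was the called gene of 6 tested eat-me and don't-eat-me genes, at 258 CPM in tissue macrophages and 84.0 CPM in monocytes (1.51). Over all genes, 6.55% were called higher and 3.89% lower in that comparison. With so few genes tested per list, the counts of this paragraph are not read as a result about the lists.

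The likeness of patterns was measured as Pearson's r of log2(CPM + 10) over 52 points, which are 16 classes in the libraries where they held at least 30 cells, among 6489 genes that are neither members nor gate markers. The points share libraries and classes, so r is a description. Among the members, Stab1 and Mrc1 were closest (0.96), followed by Gas6 with Mrc1 (0.90) and Gas6 with Stab1 (0.89). Folr2 was closest to Mrc1 (0.86), then to Mertk (0.84) and Gas6 (0.81). Mertk went with Folr2 (0.84) and Axl (0.83), and Tyro3 with none (-0.19 to 0.18). The genes nearest to Stab1 were Smagp (0.96), Stard8 (0.93) and Dab2 (0.92), and the genes nearest to Mrc1 were Stard8 (0.95), Dab2 (0.94) and Smagp (0.94), so that the pair shared its 3 nearest genes.

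Gas6 was near to Osbpl11 (0.93) and Stard8 (0.92), and Folr2 was nearest to Wwp1 (0.91), Fcna (0.90) and Tbxas1 (0.90). Mertk was nearest to Acp2 (0.95), Abcc3 (0.95) and Ctsb (0.94), which include the lysosomal acid phosphatase and cathepsin B. Axl was nearest to Lrp1 (0.89), itself an endocytic receptor of the clearance list, Plxnb2 (0.86) and Acp2 (0.86). Pros1 was nearest to Arhgap31 (0.88), Epb41l2 (0.87) and Adam15 (0.87). Stab2 was nearest to Dysf (0.96), Ptprm (0.93) and the endothelial protein C receptor gene Procr (0.92), and Tyro3 to Hoxa10 (0.91), Efna5 (0.90) and Jam3 (0.89).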

How the data were processed

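Gene counts (UMIs) of the pooled matrix were used as the authors deposited them. Per the file headers the version is Cell Ranger 3.0.1, whereas the submitters' processing notes list Cell Ranger 2.1.1 and mm10. Libraries used the 3′ kit v1, per the labels' protocols. The name of the deposited matrix holds Cx3cr1 and Csf1r and not the marrow, and no label says whether adult marrow is in it. A marker counted as detected at 2 UMIs or more, and each class needed 3 to 5 markers. The gate thresholds were set on these data, and the members, lists and markers were chosen with earlier results of these data known. The 1974 cells meeting unlike gates were left out, no doublet caller was run, and an alternative left out the 5% deepest cells. Named genes were all 9 members, list genes with the 3 highest CPM per list or a 4-fold difference between tissue macrophages and monocytes at 50 CPM or more, and the 3 nearest genes by r, of which 1 is not reported here. Folds compare summed CPM, differences log2(CPM + 10). With 1 pooled sample no test was made, and the difference step was tested on simulated data. Tools were Python 3.11.15, numpy 2.4.6, scipy 1.17.1, pandas 2.3.3 and matplotlib 3.10.9.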

Additional observations from a re-analysis of the deposited data

How the results depend on the processing

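The 90 member differences were recomputed under 13 alternatives: stricter and looser gates, assignment of each cell by likelihood, a stricter cell filter, means over cells, medians over libraries, median-of-ratios scaling, a pseudocount of 1 CPM, removal of the 5% deepest cells, and each library left out in turn. Of 1170 recomputed differences, 990 stayed within 1 SD over the libraries, 180 moved further and none of the called ones changed sign, while 24 recomputed values of uncalled differences did, among them Axl in tissue macrophages against monocytes (-0.64 with stricter gates), and the number of members called stayed within 1.5 times in each comparison. Beyond the changes named in the results, Tyro3 in mesenchymal cells passed the call under 8 alternatives (up to 3.09, with a pseudocount of 1 CPM), Axl in mesenchymal cells under 4 (up to 1.64, with stricter gates), and Axl in endothelial cells lost it with stricter gates (-0.46) and by likelihood (-0.87). Pros1 in endothelial cells passed it as a mean over cells (1.02). A pseudocount of 1 CPM, which gives low genes more weight, put past it Mertk in sinusoidal against other endothelial cells (1.69, from 13 and 7 UMIs), Tyro3 in endothelial cells (1.51), Stab2 in tissue macrophages against monocytes (1.05), and in osteoclasts Stab2 (-1.27) and Axl (1.05) and in Kupffer cells Pros1 (-1.27). In Kupffer cells with no endothelial UMI, an alternative chosen after seeing the data, which kept 794 of 835 cells, Stab2 was 2.30 higher. Shares of tissue macrophages with a UMI rose with depth by construction. From 2000 UMIs to 4000 UMIs to no thinning the share went for Mertk over 6.93%, 13.4% and 35.9%, for Axl over 5.48%, 10.0% and 24.3%, for Gas6 over 66.3%, 79.7% and 89.7%, for Pros1 over 6.54%, 13.2% and 36.4%, for Stab1 over 73.1%, 88.8% and 97.9%, for Stab2 over 0.230%, 0.534% and 1.91%, for Mrc1 over 75.3%, 88.7% and 97.8%, and for Folr2 over 38.9%, 55.4% and 76.6%. For Tyro3 it was 0.0607% at 2000 UMIs and 0.447% with no thinning. Without a filter on low genes, 3.87% of genes were called between tissue macrophages and monocytes. No paired analysis was possible because the barcodes carry no replicate number.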
